A study of Mus musculus with 6 samples.

Results

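CC chemokines were followed in LPS-stimulated mouse macrophages with and without Capns1. They are small secreted proteins that attract leukocytes. The genes were taken by symbol from the deposited tables: Ccl2, Ccl3, Ccl4, Ccl5, Ccl6, Ccl7, Ccl9, Ccl12, Ccl22 and Ccl24, that is 10 of 16266 genes. Of these 10, 9 had enough counts to be tested among 12219 genes. In KO libraries the monocyte attractants Ccl2 and Ccl7 were higher, 1.83-fold and 1.62-fold. Ccl24, an eosinophil attractant, was 5.84-fold lower. These 3 of 9 were called at an edgeR adjusted p under 0.05, as were 14.6% of all genes tested. Ccl24 had only 5 to 18 counts in the KO libraries, and Ccl7 lost its call under 7 of 18 alternative fits. The other 6 tested members were not called, among them Ccl5, by far the most abundant.

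All 6 libraries came from bone marrow-derived macrophages, grown in DMEM with serum and antibiotics and held with LPS for 24 h. LPS is a bacterial cell wall lipid that acts through the receptor TLR4. The WT group had 3 libraries of genotype WT. The KO group also had 3, whose genotype field reads CAPNS1-KO, CAPNS2-KO and CAPNS3-KO, while the series' design text names capns1 for all. The title calls the deletion myeloid-specific, and the Cre driver, the age of the mice and the origin of the replicates were not stated in the labels. No library without LPS was analysed here, so induction by LPS was not measured. The p-values measure the spread between these libraries only, which may be technical.

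A chemokine binds a G protein-coupled receptor on the surface of a leukocyte, and the cell moves up the gradient. CC chemokines carry 2 adjacent cysteines near the start of the mature protein, which anchor the fold through disulfide bonds. Ccl2, Ccl7 and Ccl12 act on CCR2 and draw monocytes out of marrow and into tissue. Ccl3, Ccl4 and Ccl5 attract T cells, monocytes and macrophages, and Ccl3 and Ccl5 act on CCR1. Ccl6 and Ccl9 are rodent ligands of CCR1 with additional cysteines, Ccl22 is the CCR4 ligand and Ccl24 acts on CCR3. Macrophages exposed to LPS are a main source of several of these ligands.

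The coding sequence around the paired cysteine codons is shown for each member, since it defines the family and shows how far the paralogs have diverged. Each line gives 48 bases, 5′ to 3′ on the coding strand, from GENCODE M21 transcripts on GRCm38. Capitals mark the 2 adjacent cysteine codons.
Ccl2: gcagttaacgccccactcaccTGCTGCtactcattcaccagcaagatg
Ccl7: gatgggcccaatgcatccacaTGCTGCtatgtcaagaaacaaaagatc
Ccl12: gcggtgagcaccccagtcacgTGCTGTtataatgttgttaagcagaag
Ccl3: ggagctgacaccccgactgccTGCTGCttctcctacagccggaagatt
Ccl4: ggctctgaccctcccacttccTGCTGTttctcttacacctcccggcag
Ccl5: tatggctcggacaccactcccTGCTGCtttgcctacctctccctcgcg
Ccl6: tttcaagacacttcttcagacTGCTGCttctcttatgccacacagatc
Ccl9: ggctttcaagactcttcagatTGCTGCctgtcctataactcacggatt
Ccl22: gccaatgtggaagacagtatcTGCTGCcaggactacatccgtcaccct
Ccl24: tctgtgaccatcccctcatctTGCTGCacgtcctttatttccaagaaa

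The codon pair lies in exon 2 of 3 in 8 members and in exon 3 of 4 in Ccl6 and Ccl9. In Ccl2 it is at chr11:82036506-82036511 (+ strand), in Ccl7 at chr11:82046538-82046543 (+) and in Ccl24 at chr5:135572665-135572670 (-). In each member a further cysteine codon follows 22 to 24 codons after the pair. Among members, the coding sequences of Ccl3 and Ccl4 were the most alike, with 68.4% identity over their alignment. Ccl6 and Ccl9 had 64.6% and Ccl7 and Ccl12 63.5%. No word of 32 bases was shared between any 2 members. Of the words of Ccl9, 3.78% occurred in transcripts of other genes, against 0.965% for Ccl6, 0.324% for Ccl5 and 0 for the other 7. Reads of that length from one member thus have no exact match in another.

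Of the 10 genes, 8 lie in a pair of clusters on chromosome 11 (GRCm38, GENCODE M21). Ccl2 (82035571 to 82037453), Ccl7 (82045712 to 82047525) and Ccl12 (82101845 to 82103400) form the first, in that order, on the + strand. Ccl5 (83525778 to 83530518), Ccl9 (83572919 to 83578636), Ccl6 (83587882 to 83593087) and Ccl3 (83647844 to 83649355) lie on the - strand of the second, followed by Ccl4 (83662584 to 83664683) on the + strand. Ccl22 is on chromosome 8 (94745590 to 94751699) and Ccl24 on chromosome 5 (135569937 to 135573049). Gm17268 overlaps Ccl2 and E230016K23Rik overlaps Ccl6 on the opposite strand, each with 0 shared exonic bases.

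Total counts per library ranged from 32631163 to 40913819, at which 3 counts correspond to 0.0733 to 0.0919 CPM (counts scaled to the column total). These limits cover counting error only. Capns1, the targeted gene, had 298 to 370 counts in KO libraries and 17055 to 21331 in WT libraries (log2 fold change -5.73), so that each KO library carried the loss. Scores on the second principal component were -21.3 for KO replicate 2 against 10.8 and 9.08 for its group, and 18.1 for WT replicate 3 against -5.92 and -10.8. Macrophage markers were high in both groups, with a summed level of 35677 to 42952 CPM in WT and 33932 to 38974 in KO. Of these 9 markers 0 rose and 1 fell in KO, where 8.44% of all genes tested were called higher and 6.21% lower.

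Transcript levels of the members spanned several orders of magnitude. Compared per length, in FPKM, which scales fragments by transcript length and library size, Ccl5 had 7768, 7390 and 8777 in the WT libraries and 7539, 5908 and 7353 in the KO libraries. Its rank among all genes of the table was 6 in each WT library and 5 or 6 in the KO libraries. Ccl6 came next (376 ± 90.8 FPKM in WT and 301 ± 23.7 in KO; SD, n = 3), followed by Ccl9 (209 ± 33.9 and 236 ± 24.1). Neither overlapped its neighbour in the order within a group. Ccl3, Ccl4 and Ccl5 together held 89.5 to 93.6% of the summed FPKM of the 10 members in WT and 88.3 to 91.9% in KO. Nearly all of this came from Ccl5.

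Below them, in WT, stood Ccl2 (62.8 ± 16.2 FPKM), Ccl3 (36.0 ± 6.50), Ccl12 (30.1 ± 7.69), Ccl7 (26.5 ± 5.88) and Ccl4 (17.5 ± 5.77). In WT, Ccl2 lay above Ccl3 in all libraries, whereas Ccl3 and Ccl12, Ccl12 and Ccl7, and Ccl7 and Ccl4 overlapped. In KO, Ccl7 (43.3 ± 11.5) stood above Ccl3 (34.7 ± 9.42) and Ccl12 (29.2 ± 8.47) by its mean, with overlap between each and the next, and Ccl4 (12.5 ± 5.68) lay below all of them. Ccl24 reached at most 1.33 FPKM and Ccl22 at most 0.355. Ccl22 in both groups, and Ccl24 in KO, were the members nearest the level of 3 counts.

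**Figure D1:**
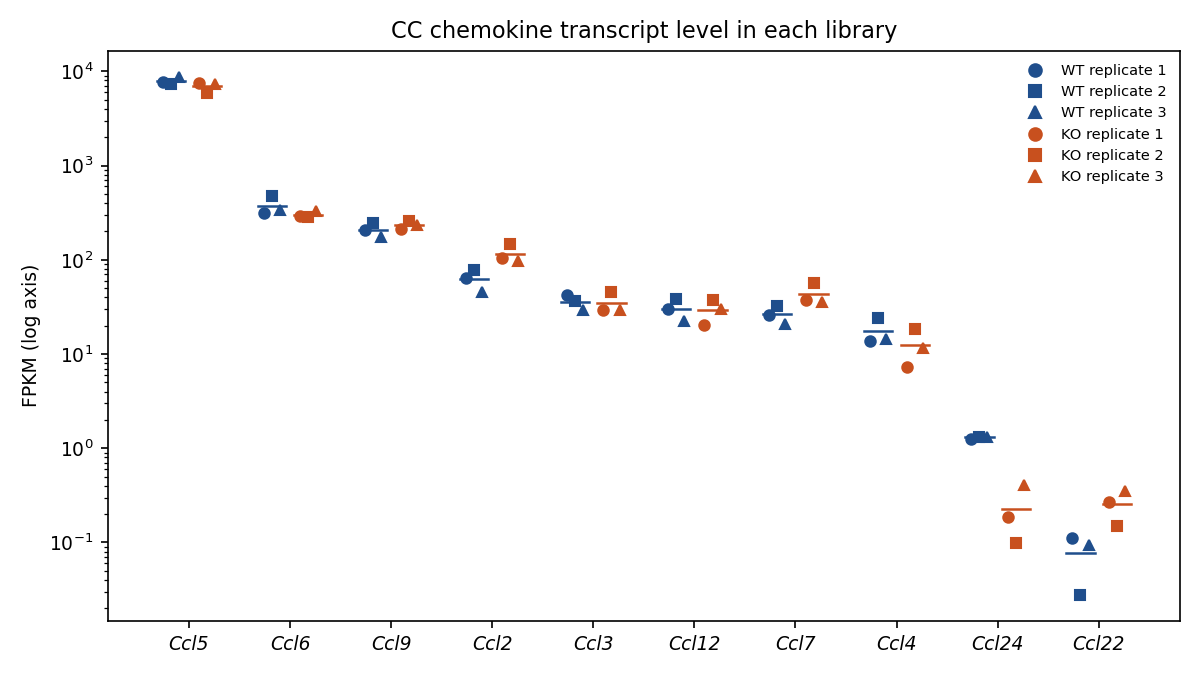
FPKM of each member (log axis) in the 3 WT and 3 KO libraries, with a line at each group mean. Ccl5 lies between 5908 and 8777 in all 6 libraries, and Ccl24 and Ccl22 lie at or under 1.33.

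Of the 3 CCR2 ligands, Ccl2 and Ccl7 rose and Ccl12 was not called. Ccl2, also known as monocyte chemoattractant protein, had 52.0, 62.9 and 36.9 CPM in WT replicates 1 to 3 and 83.8, 119 and 77.9 in KO replicates 1 to 3. The lowest KO library lay above the highest WT library. Its log2 fold change was 0.87 ± 0.20 SE (95% interval 0.43 to 1.31; edgeR adjusted p = 0.0137). In bulk RNA, more cells that make a transcript and more of it per cell cannot be told apart.

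Ccl7, which lies 8.26 kb downstream of Ccl2 and also attracts monocytes, had 20.7, 26.2 and 16.8 CPM in WT and 30.1, 45.3 and 28.7 in KO. Its groups did not overlap either. The log2 fold change was 0.69 ± 0.20 SE (95% interval 0.25 to 1.13; edgeR adjusted p = 0.0392). KO replicate 2 was the highest KO library and WT replicate 3 the lowest WT library for both genes. Without these 2 libraries the log2 fold changes were 0.45 for Ccl2 (edgeR adjusted p = 0.00434) and 0.28 for Ccl7 (0.107). Ccl7 also lost its call without WT replicate 1 (0.113), without WT replicate 3 (0.0639), and without KO replicate 2 (log2 fold change 0.43, 0.0983), whereas Ccl2 kept its call under all 18 alternatives.

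Ccl12, the third CCR2 ligand and 54.3 kb further along, did not show this pattern. It had 16.0, 20.3 and 12.1 CPM in WT and 11.0, 20.02 and 16.0 in KO, so that the groups overlapped over nearly their whole range. The log2 fold change was -0.059 (95% interval -0.56 to 0.44; edgeR adjusted p = 0.904). Ratios within a library show how far the genes of this cluster differed. The FPKM ratio of Ccl12 to Ccl2 was 0.463, 0.487 and 0.493 in WT and 0.197, 0.253 and 0.309 in KO. It was 1.93-fold lower in KO, with no overlap between groups, while the ratio of Ccl7 to Ccl2 was 0.401 to 0.458 in WT and 0.361 to 0.383 in KO. Among 6 such ratios, each of these 2 had p = 0.1 in an exact permutation test (two-sided; adjusted p = 0.15), which is the smallest p that 3 against 3 allows.

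Ccl8, a ligand of the same cluster that lies 11.8 kb beyond Ccl12 and is not among the 10, went the other way. It had 9.54, 15.3 and 9.07 CPM in WT and 5.39, 4.54 and 8.89 in KO. The groups were apart by a narrow margin, between KO replicate 3 and WT replicate 3. Its log2 fold change was -0.88 ± 0.26 SE (edgeR adjusted p = 0.0397). That call was lost under 10 of 18 alternatives, including the omission of WT replicate 1 or 2, or of KO replicate 1 or 2 (adjusted p = 0.0525, 0.184, 0.139 and 0.0926), with log2 fold change -0.59 without WT replicate 2. The FPKM ratio of Ccl8 to Ccl2 was 0.290 to 0.388 in WT and 0.0603 to 0.180 in KO. Its groups did not overlap (two-sided exact permutation p = 0.1, adjusted p = 0.15).

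**Figure D2:**
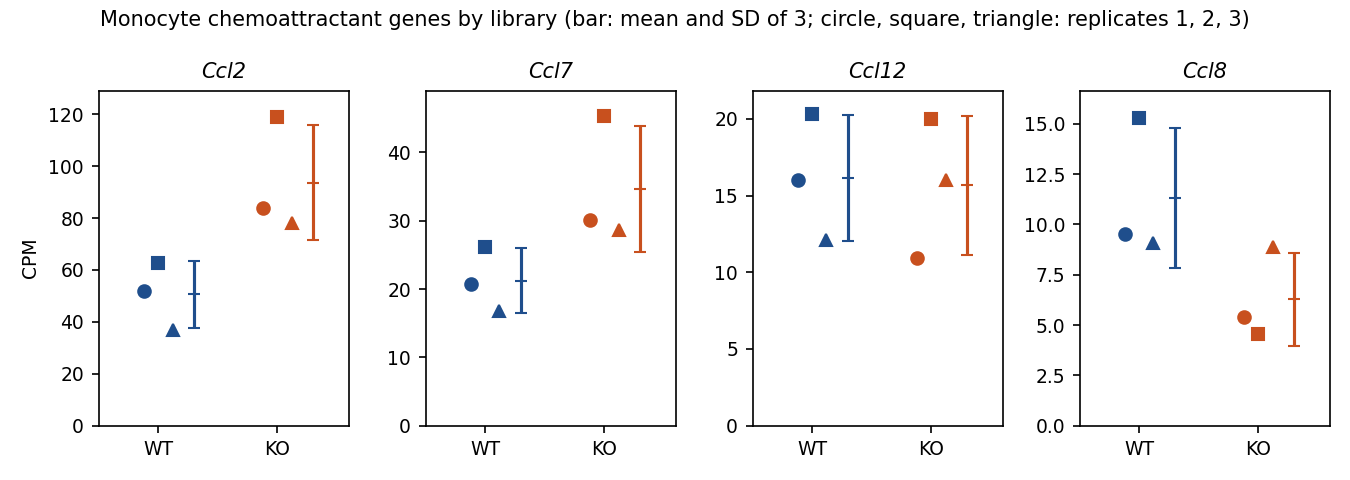
CPM of 4 genes of the Ccl2 cluster in each library, by group, in chromosomal order, with mean and SD (n = 3). Ccl2 and Ccl7 are higher in all KO libraries, Ccl12 overlaps between groups and Ccl8 is lower in KO.

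In the same libraries, transcripts that mark fibroblasts and marrow stroma, which also make Ccl2 and Ccl7, were higher in KO. Of the 9 markers, 5 rose and 0 fell, where 8.44% of all genes tested were called higher and 6.21% lower. The summed level of these markers was 160.3 to 195 CPM in WT and 342 to 416 in KO. Col1a2, a collagen chain, had 71.9, 65.4 and 94.6 CPM in WT and 203, 142 and 183 in KO. The part of these cells in the rise of Ccl2 and Ccl7 was not tested.

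None of Ccl3, Ccl4 and Ccl5 passed the test. Ccl5 (RANTES), a T cell and monocyte attractant, had 4133, 3932 and 4670 CPM in WT and 4011, 3143 and 3912 in KO. KO replicate 1 lay within the WT range and the other KO libraries below it. Its log2 fold change was -0.23 ± 0.11 SE (95% interval -0.47 to 0.013; edgeR adjusted p = 0.201). T cells can also make Ccl5, and their markers summed to 1.15 to 1.49 CPM in WT and 0.17 to 0.429 in KO, with Cd3d and Cd3g under 10 counts in every library. Of these markers only Cd28 reached the count filter, and only through its WT libraries (0.692, 0.858 and 0.855 CPM). In KO it was near the floor, at 0.0284, 0.0269 and 0.245 CPM (log2 fold change -3.04, edgeR adjusted p = 0.0105). The part of T cells in the Ccl5 level was not tested.

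Ccl3, an inflammatory protein of macrophages that acts on CCR1, had 33.3, 29.0 and 23.1 CPM in WT and 23.0, 36.0 and 23.2 in KO. KO replicate 2 was above all WT libraries, KO replicate 1 just below them and KO replicate 3 just above the lowest WT library. Its log2 fold change was -0.069 (95% interval -0.49 to 0.35; edgeR adjusted p = 0.863). Ccl4, its paralog 13.2 kb away, had 9.17, 15.9 and 9.56 CPM in WT and 4.85, 12.3 and 7.69 in KO. KO replicates 1 and 3 lay below all WT libraries and KO replicate 2 within their range. For Ccl4 the log2 fold change was -0.49 ± 0.31 SE (95% interval -1.16 to 0.18; edgeR adjusted p = 0.328), the widest interval of the members that were not called.

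The value of Ccl4 depended on single libraries of both groups. Its log2 fold change was -0.18 without WT replicate 2 (edgeR adjusted p = 0.784), -0.20 without KO replicate 1 (0.720) and -0.92 without KO replicate 2 (0.0351). Without both KO replicate 2 and WT replicate 3, it was -1.05 (0.00511) and that of Ccl3 was -0.47 (0.00656). This subset was chosen after the data were seen, and in it the second component (-5.92 and -10.8 in WT, 10.8 and 9.08 in KO) separates the groups as well, so the component and the genotype cannot be told apart.

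Ccl6 and Ccl9, rodent chemokines of myeloid cells, were abundant in both groups. Ccl6 had 449.5, 689 and 480.2 CPM in WT and 415, 409 and 471 in KO. WT replicate 2 stood high, and KO replicate 3 lay above the lowest WT library. This gave a log2 fold change of -0.34 ± 0.15 SE (95% interval -0.66 to -0.026; edgeR adjusted p = 0.147). Ccl9, 9.24 kb from Ccl6, had 624, 732 and 528 CPM in WT and 641, 785 and 704 in KO, with a log2 fold change of 0.16 ± 0.13 SE (95% interval -0.12 to 0.44; edgeR adjusted p = 0.473). The FPKM ratio of Ccl6 to Ccl9 was 1.51, 1.97 and 1.91 in WT and 1.36, 1.09 and 1.40 in KO. The groups of this ratio did not overlap (two-sided exact permutation p = 0.1, adjusted p = 0.15), although neither gene was called. The ratio of Ccl4 to Ccl3 overlapped between groups (0.33 to 0.658 in WT and 0.253 to 0.409 in KO; exact permutation p = 0.3).

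**Figure D3:**
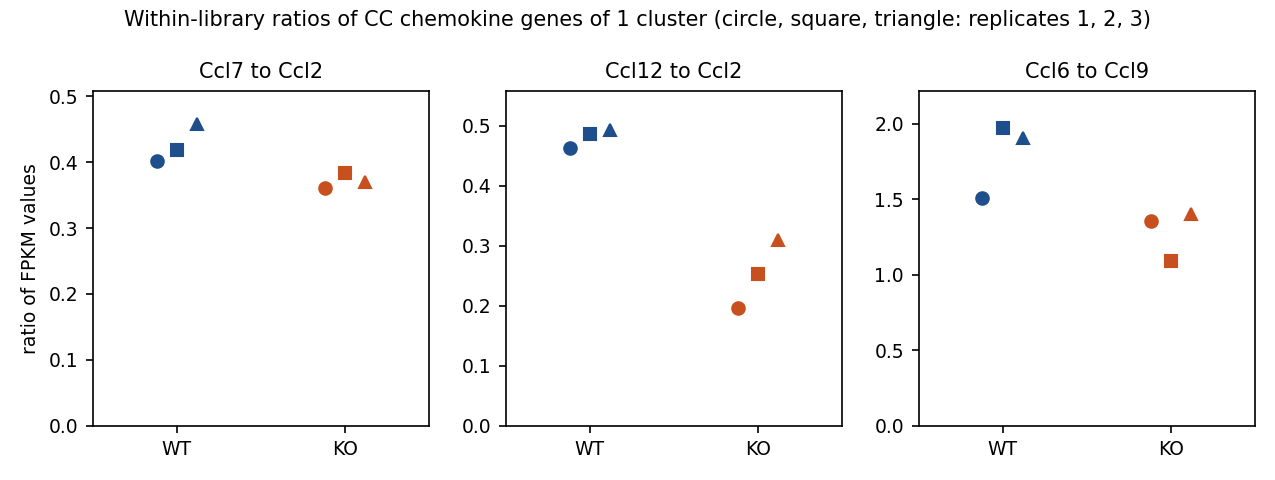
FPKM ratio of 3 of the 6 gene pairs compared, each within a chromosomal cluster, in each library. The ratio of Ccl12 to Ccl2 is 0.463 to 0.493 in WT and 0.197 to 0.309 in KO, and those of Ccl7 to Ccl2 and of Ccl6 to Ccl9 are also lower in all KO libraries.

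Ccl24 (eotaxin-2), which attracts eosinophils and is used as a transcript of interleukin-4 type activation, was the single member that fell. It had 60, 72 and 74 counts in WT and 9, 5 and 18 in KO, that is 1.73, 1.82 and 1.81 CPM against 0.255, 0.134 and 0.552. The group means were 1.78 ± 0.0483 and 0.314 ± 0.215 CPM (SD, n = 3), with every KO library below every WT library and KO replicate 3 the highest of the KO group. Its log2 fold change was -2.55 ± 0.45 SE (95% interval -3.53 to -1.56; edgeR adjusted p = 0.00315). It was called under all 18 alternatives, with values from -3.19 without KO replicate 3 to -0.91 for log2(FPKM + 1), a scale that shrinks differences of weakly expressed genes. Ccl24 passed the count filter through its WT libraries.

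Ccl22, which attracts regulatory and helper T cells through CCR4, was below the count filter. Its counts were 7, 2 and 7 in WT and 17, 10 and 21 in KO. The groups did not overlap (two-sided exact permutation p = 0.1). With no low-count filter its log2 fold change was 1.68 ± 0.73 SE (edgeR adjusted p = 0.164). Ccl17, the other CCR4 ligand, had 0 to 2 counts.

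Of the 9 tested members, 2 were called higher and 1 lower (edgeR adjusted p under 0.05), where 14.6% of all 12219 genes were called, 8.44% higher and 6.21% lower. The groups were fully separated for 3 of the 9, 2 higher and 1 lower in KO, against 33.6% of all genes tested (18.2% higher and 15.5% lower). The median log2 fold change was -0.069 over the tested members and -0.011 over all genes. Its median size was 0.34 against 0.20, but the median SE was also larger, 0.20 against 0.14. Of the other CC ligands, 2 of the 7 in the table were tested, and Ccl8 was called. Ccl11, Ccl20, Ccl21a and Ccl27a had at most 2, 6, 10 and 10 counts in any library.

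**Figure D4:**
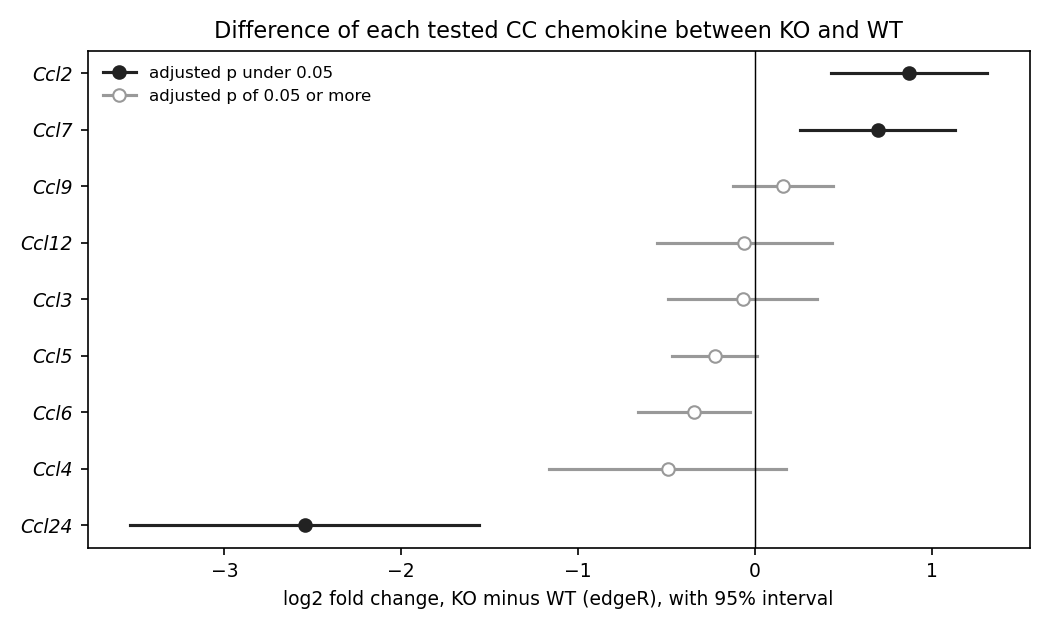
Log2 fold change (KO minus WT) of the 9 tested members with 95% intervals from edgeR, filled where the adjusted p was under 0.05. Ccl2 and Ccl7 lie above 0 and Ccl24 below, and the other 6 were not called.

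Variation between libraries of a group was shared by many members. WT replicate 2 was the highest WT library for 7 of the 9 tested members, and KO replicate 2 was the highest KO library for 6. Ccl5 ran the other way, lowest in replicate 2 of each group. WT replicate 3 was lowest for 5 members, namely Ccl2, Ccl3, Ccl7, Ccl9 and Ccl12. How many of all genes tested share this order was not counted. The coefficient of variation of CPM within a group was 8.99% (WT) and 12.9% (KO) for Ccl5, and 25.8% and 23.7% for Ccl2.

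Of 14 receptor genes of the CC family, 5 were tested with edgeR. Of these 5, 2 fell, Ccrl2 and Ccr2, where 6.21% of all genes tested were called lower. None rose, with 0 higher also by DESeq2 and at an unadjusted p under 0.05. Ccrl2, an atypical receptor that does not signal through G proteins and presents chemerin, had 35.0, 40.6 and 40.5 CPM in WT and 22.7, 23.4 and 23.9 in KO (log2 fold change -0.75 ± 0.11 SE, edgeR adjusted p = 8.39e-04). Ccr2, the receptor for Ccl2, Ccl7 and Ccl12, had 3.29, 3.66 and 2.64 CPM in WT and 1.99, 1.40 and 1.93 in KO. Its groups did not overlap. The log2 fold change was -0.87 ± 0.24 SE (edgeR adjusted p = 0.0324), and the call was lost on leaving out any library other than WT replicate 3 (adjusted p = 0.0685 to 0.125). The same KO libraries thus held more Ccl2 and Ccl7 transcript and less of the receptor's.

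Ccr1, the receptor for Ccl3, Ccl5, Ccl6 and Ccl9, had 76.7, 122 and 78.0 CPM in WT and 90.5, 91.2 and 94.8 in KO. The KO libraries lay within the WT range (log2 fold change -0.020, 95% interval -0.36 to 0.32; edgeR adjusted p = 0.954). Ccr3, the receptor for Ccl24, had 1.99, 2.25 and 1.52 CPM in WT and 1.25, 0.967 and 1.50 in KO, with a narrow gap between the groups (log2 fold change -0.65 ± 0.29 SE, edgeR adjusted p = 0.171). Eosinophils carry this receptor, and their markers summed to 9.90 to 15.1 CPM in WT and 5.14 to 9.49 in KO, with 0 of 4 tested markers called.

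**Figure D5:**
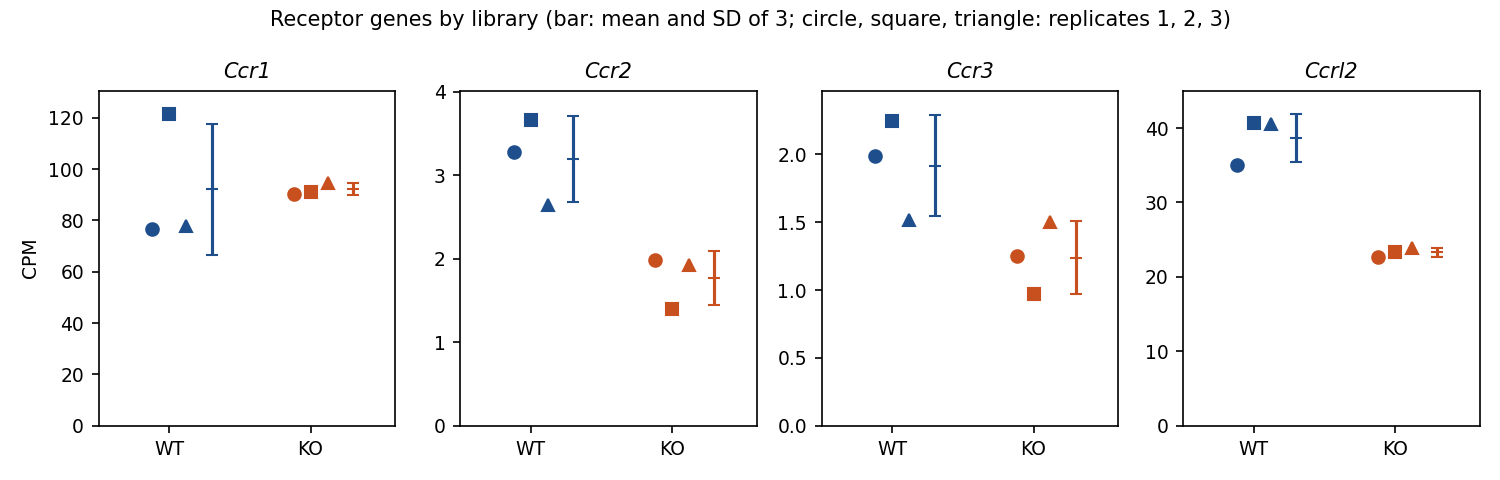
CPM of the chemokine receptor genes Ccr1, Ccr2, Ccr3 and Ccrl2 in each library, by group, with mean and SD (n = 3). Ccrl2 is at 35.0 to 40.6 in WT and 22.7 to 23.9 in KO, while Ccr1 overlaps between groups.

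Downstream of the receptors, 1 of 23 tested signalling genes rose and 6 fell, against 8.44% and 6.21% of all genes tested. The median log2 fold change of this list was -0.032. The G proteins Gnai2 (log2 fold change 0.0044, edgeR adjusted p = 0.984) and Gnai3 (-0.050, 0.801), through which chemokine receptors act, were not called. Rgs16 (log2 fold change 1.62, edgeR adjusted p = 5.91e-05), a protein that speeds GTP hydrolysis by G proteins, rose. Rgs10 (-0.65), Rgs2 (-0.72) and Rgs1 (-0.97) of the same family fell, as did the receptor kinase Grk3 (-0.70). Rgs1 lost its call without WT replicate 2 (adjusted p = 0.0543, log2 fold change -0.75).

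Among transcription factors and RNA-binding proteins that act on chemokine genes, 2 of 28 rose and 4 fell. Among all genes tested, 8.44% were called higher and 6.21% lower. The median log2 fold change of these 28 genes was -0.023. Fosl1, an AP-1 subunit, rose (2.09, edgeR adjusted p = 4.35e-06), and so did Zc3h12a (0.46), a ribonuclease that degrades inflammatory mRNAs. Zfp36l1, which promotes decay of AU-rich mRNAs (-0.83), and the interferon regulatory factors Irf1 (-0.44) and Irf8 (-0.33) fell. The sixth gene was Fos (-0.61, edgeR adjusted p = 0.0499), whose call was lost under 11 of 18 alternatives, among them the omission of WT replicate 2 or 3, or of KO replicate 1 or 3. The calls of Irf1 and Zc3h12a were lost without any of WT replicates 1 and 2 and KO replicates 1 and 3, and that of Irf8 also without WT replicate 3 (adjusted p up to 0.08, 0.109 and 0.136). The NF-kB subunits Rela (-0.091, edgeR adjusted p = 0.740) and Nfkb1 (0.037, 0.882), central to chemokine induction by LPS, were not called.

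Of 12 proteases that can trim or degrade chemokines, 2 rose and 4 fell, against 8.44% and 6.21% of all genes tested. Mmp2, a gelatinase also made by fibroblasts, rose (1.37, edgeR adjusted p = 1.97e-04), as did the insulin-degrading enzyme Ide (0.71). The macrophage elastase Mmp12 fell (-0.80, edgeR adjusted p = 0.00794). The cathepsins Ctsb (-0.36) and Ctsl (-0.45) fell too. Omitting WT replicate 2, or KO replicate 1 or 3, ended both calls, and for Ctsb also omitting WT replicate 3 (adjusted p up to 0.0942 and 0.113; log2 fold change of Ctsl -0.28 without WT replicate 2).

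Genes within 100 kb of a member, the members themselves left out, numbered 45, of which 17 were tested. Of these, 5 rose and 1, Ccl8, fell, where 8.44% of all genes tested were called higher and 6.21% lower. Near Ccl3 and Ccl4, Wfdc17 (log2 fold change 0.87, edgeR adjusted p = 6.51e-04) and Wfdc21 (1.02, 0.00104), which encode small secreted proteins of the whey acidic protein type, rose while those chemokines were not called. Near Ccl22, the chemokine Cx3cl1 (2.05, edgeR adjusted p = 1.61e-04) and Arl2bp (2.80, 3.16e-07) rose. Por, a reductase that serves cytochromes P450 and lies near Ccl24, rose (0.49, edgeR adjusted p = 0.0199) where Ccl24 fell, and lost its call without KO replicate 3 (0.0511).

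Likeness of pattern was measured as Pearson's r of log2 TMM-scaled CPM over the 6 libraries. A constant was added before the log, which weighs most on low values such as those of Ccl24 in KO. Candidates were 8831 protein-coding genes above a minimum mean CPM, without Gm-numbered or Rik symbols. For Ccl24 the highest r was that of Bmf, Cab39 and Tgfbr1 (0.998, 0.998 and 0.996), with log2 fold changes of -1.13, -0.37 and -0.40. For Ccl5 it was that of Csf2rb, Zfp106 and Prkx (0.998, 0.998 and 0.997), none of them called (edgeR adjusted p = 0.15, 0.264 and 0.118). These values describe 6 libraries in which group and replicate both vary, and were the highest of many candidates.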

How the data were processed

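The authors deposited read counts per gene and FPKM values for 6 libraries. Strand-specific total RNA libraries were made, per the labels' protocols. Per the submitters' processing notes, fastp, HISAT2 and HTSeq were used with mm10. Versions and the strand setting were not stated there. Groups came from sample titles.

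The quasi-likelihood F test of edgeR 4.0.16 (R 4.3.3) compared the groups on counts, after filterByExpr (minimum of 10 counts) and TMM scaling, with Benjamini-Hochberg adjustment over 12219 genes. Called means an adjusted p under 0.05. SE is the log2 fold change divided by the square root of F, and 95% intervals use its t quantile. Deposited FPKM served for levels between genes. Gene positions came from GENCODE M21, on GRCm38. The members and lists were chosen with earlier results of these data known. Named genes were the members, up to 5 called genes per list, Capns1, called neighbours and the 3 genes of highest correlation with Ccl24 (smallest adjusted p) and Ccl5 (highest FPKM). Ccr1, Ccr3, Gnai2, Gnai3, Rela, Nfkb1, Fos, Cd28, Col1a2 and the ratios were added after their values were seen. Lists of markers for 11 cell types were read. Of these, neutrophil markers had 2 called higher and 2 lower of 8, endothelial 0 and 2 of 5, B cell 1 and 0 of 2, erythroid or megakaryocyte 1 and 0 of 4, and dendritic and mast cell or basophil markers 0 of 2 each. NK cell markers were under 10 counts in every library. Alternatives were DESeq2 1.42.0, limma 3.58.1, other scalings and filters, a replicate block and leaving out libraries. The procedure was also run on counts simulated from the means and dispersions of these data. Such counts hold no effects shared by the genes of a library. Results for 1 gene are not reported here.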

Additional observations from a re-analysis of the deposited data

How the results depend on the processing

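Of 18 alternatives, the fit of 4 libraries that omits WT replicate 3 and KO replicate 2 was added after the data were seen. Ccl2, Ccl24 and Ccrl2 kept direction and call under all 18. The members called higher numbered 1, in place of 2, with the 3 limma-trend settings (Ccl7 lost, adjusted p = 0.0606, 0.0511 and 0.0510) and in the 4 remaining libraries, and 1 to 2 leaving out 1 library. Members called lower numbered 2 with a replicate block (Ccl4 added, adjusted p = 0.0216), 3 in the 4 libraries and 1 to 2 leaving out 1 library. All called genes numbered 1119 to 1741 leaving out 1 library, 3186 in the 4 libraries and 2526 with the replicate block, against 1790. The labels do not say whether the replicate numbers pair the libraries. Deviations of same-numbered libraries correlated at -0.16, 0.34 and 0.28. KO replicates 2 and 3 correlated best with the WT library of their own number, and KO replicate 1 with WT replicate 3 (0.39). These values do not decide whether the libraries are paired. Called receptors numbered 1 lower, in place of 2, with limma-trend at FPKM of at least 1, where Ccr2 was not tested, 1 to 2 lower leaving out 1 library, and 0 higher under all 18.

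Direction changed only in uncalled genes, and the cause was not tested. Leaving out 1 library, the log2 fold change of Ccl3 ranged from -0.34 to 0.064, Ccl12 from -0.30 to 0.16 and Ccr1 from -0.14 to 0.24. Ccl9 was at -0.051 in the 4 libraries. Ccr1 was at 0.00028 with library totals alone, 0.0017 with upper-quartile scaling, 0.011 with limma-voom, 0.033, 0.034 and 0.033 with limma-trend and 0.011 with the replicate block. Depth limits Ccl22 and Ccl24, at 2 to 74 counts.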
